A study of Mus musculus with 8 samples.

Results

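The genes of glucose uptake and glycolysis were examined across 8 wild-type E8.5 embryos of the mouse. They are the glucose transporters Slc2a1 and Slc2a3, the hexokinases Hk1 and Hk2, the phosphofructokinase subunits Pfkl and Pfkp, and Aldoa, Pgk1, Eno1 and Ldha. Members were every non-control probe on the array whose RefSeq accession maps to 1 of these 10 symbols, which gave 14 of the 55681 probes. Hk1 and Pfkp had 2 probes each, Ldha had 3 and the other 7 genes had 1. The rule that picked the probes used no measured value, but the 10 genes were named with earlier results of these data known. The glycolytic mRNAs of the whole embryo did not differ detectably with the father's Eed genotype: none of the 14 probes was called, and every 95% interval lay within a 2-fold change.

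The embryos shared a wild-type genotype, a wild-type mother and a C57bl6/129 background, and they differed in their sires. Eed encodes a core subunit of Polycomb Repressive Complex 2 (PRC2), which places the repressive mark H3K27me3, and Eedl7Rn5-1989SB (here hypo) is a chemically induced allele of reduced function. A group of 4 embryos had Eed wt/wt fathers (wt/wt-sired embryos 1 to 4, of which 1 and 3 were female and 2 and 4 male), and a group of 4 had Eed hypo/wt fathers (hypo/wt-sired embryos 1 to 4, of which 2 and 4 were female and 1 and 3 male). The comparison asked whether wild-type offspring carry a trace of the father's genotype. Total RNA of each stage-matched embryo, labelled with Cy3, was hybridised to its own one-colour Agilent 8x60K array. The study's mating plan names fewer males of each genotype than there were embryos, so some embryos may share a father, and p-values measure the spread between these embryos. In the labels, wt/wt-sired embryos 2, 3 and 4 share the first part of the embryo code, 2.2, and each hypo/wt-sired embryo has its own. What the code stands for is not given, and the main comparison treated the embryos as independent. The ages of the fathers are not given in the sources used here.

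Glycolysis turns glucose into pyruvate. Transporters of the Slc2a family carry glucose through the cell membrane, hexokinase traps it as glucose 6-phosphate, and phosphofructokinase commits it to the pathway. Aldolase splits the sugar, phosphoglycerate kinase makes ATP, enolase forms phosphoenolpyruvate, and lactate dehydrogenase A reduces the pyruvate to lactate and so regenerates NAD+. Around gastrulation and early organogenesis the mouse embryo takes up much glucose and releases lactate, and many of these genes are known targets of the hypoxia-inducible transcription factors (HIF), which bind hypoxia response elements.

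Promoters of 3 members are printed because they carry the core letters of the hypoxia response element, by which these genes are known as a group: Ldha and Pgk1, whose promoters served to describe that element, and Hk1, whose main probe had the widest range over the embryos among the 10 genes. Each sequence is from RefSeq (build GRCm38.p6), 250 bases before to 50 after a transcription start, with capitals marking ACGTG and its reverse complement CACGT.
Ldha, chr7:46845554-46845853, + strand: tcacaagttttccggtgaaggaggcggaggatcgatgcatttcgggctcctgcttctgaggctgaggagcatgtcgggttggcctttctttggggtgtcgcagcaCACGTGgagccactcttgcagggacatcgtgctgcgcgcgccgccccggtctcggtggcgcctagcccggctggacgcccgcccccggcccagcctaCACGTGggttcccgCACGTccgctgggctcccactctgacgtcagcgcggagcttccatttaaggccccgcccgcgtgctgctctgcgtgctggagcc
Pgk1, chrX:106186850-106187149, + strand: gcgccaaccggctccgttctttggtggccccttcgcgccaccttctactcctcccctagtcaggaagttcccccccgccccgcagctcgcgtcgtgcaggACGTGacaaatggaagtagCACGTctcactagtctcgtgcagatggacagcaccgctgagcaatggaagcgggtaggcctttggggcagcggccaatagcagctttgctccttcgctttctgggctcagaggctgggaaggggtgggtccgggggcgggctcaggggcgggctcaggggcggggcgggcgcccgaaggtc
Hk1, chr10:62340372-62340671, - strand: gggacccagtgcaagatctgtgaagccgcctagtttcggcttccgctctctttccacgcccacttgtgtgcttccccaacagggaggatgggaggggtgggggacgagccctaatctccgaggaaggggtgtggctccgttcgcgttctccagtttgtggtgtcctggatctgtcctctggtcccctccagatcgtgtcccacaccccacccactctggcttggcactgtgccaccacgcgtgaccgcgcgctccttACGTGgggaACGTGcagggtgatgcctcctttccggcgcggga

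The core letters were searched on both strands. The Ldha window held them at 3 places, and at 2 of these the ACGTG and CACGT matches overlapped in the palindrome CACGTG, the E-box that MYC and other factors also bind. The Pgk1 and Hk1 windows held 2 places each. Of the 9 members with at least 1 promoter window, 6 had the letters in at least 1 window (Slc2a1, Hk1, Hk2, Aldoa, Pgk1 and Ldha). Over all 27025 genes with a window the share was 21.8%. The letters were found in 7 of the 15 member windows, beside 19.6% of all 32851 windows of this length. Aldoa windows that overlap shared the same match, so the windows are not independent. Pfkl, Pfkp and Eno1 had no match in these windows, and Slc2a3 had no window. A match is a description of letters, and no binding was measured here.

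All 14 probes were well above background on all 8 arrays and all were tested, with no spot marked as saturated or as an outlier. Values below are log2 processed signal minus the 75th percentile of the array, so a value of 8 is a signal 8 doublings above that percentile. The main probes of Slc2a1, Slc2a3, Aldoa, Pgk1, Eno1 and Ldha were each brighter than at least 98.2% of the 33093 tested probes. Between genes such values depend on the probe as well as on the mRNA, so each probe is compared only with itself across embryos. For a gene with more than 1 probe, the brightest is called its main probe and stands for the gene.

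The arrays were not alike. The number of probes well above background ran from 29203 to 39530 per array. Each group lay on its own slide, so slide and father cannot be told apart. Hypo/wt-sired embryo 3 had the highest array median, -3.13 on the log2 scale, beside -4.59 to -3.75 in the other embryos. Markers of the embryo's cell types were present: all 7 primitive erythroid, all 7 yolk sac endoderm, all 4 cardiac, all 4 neural plate and all 4 somite and presomitic mesoderm markers were well above background on all 8 arrays. Of 6 trophoblast and decidua markers with a probe, 5 were well above background on all arrays, and Tpbpa was on none.

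Slc2a1 encodes GLUT1, the transporter of basal glucose uptake. Its values were 7.13, 7.00, 7.02 and 7.12 in wt/wt-sired embryos 1 to 4 and 7.08, 7.03, 7.03 and 7.16 in hypo/wt-sired embryos 1 to 4. The 8 embryos lay within 0.16 of each other and the groups overlapped over nearly their whole range. The difference, hypo/wt-sired minus wt/wt-sired, was 0.01 (SE 0.07, 95% interval -0.15 to 0.17, exact permutation p = 0.886), or 1.01-fold with an interval from 0.902-fold to 1.12-fold. In whole embryos, fewer cells of a type and less RNA per cell cannot be told apart, here and in every result that follows.

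Slc2a3 encodes GLUT3, a high-affinity transporter. It read 7.04, 7.14, 7.35 and 6.89 in the wt/wt-sired embryos and 7.33, 7.36, 7.22 and 7.15 in the hypo/wt-sired embryos. Wt/wt-sired embryo 4 was the lowest of all, while wt/wt-sired embryo 3 stood among the highest, so the groups overlapped. The difference of 0.16 (SE 0.11, 95% interval -0.10 to 0.42) had the smallest unadjusted p of the members in this comparison (limma p = 0.186, adjusted p = 1.00 over all tested probes, exact permutation p = 0.200). Without wt/wt-sired embryo 3 it was 0.24 with an unadjusted limma p of 0.042.

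Hk1 encodes the hexokinase of most cell types. Its main probe read 3.34, 3.32, 3.47 and 2.97 in the wt/wt-sired embryos and 3.53, 3.51, 3.33 and 3.33 in the hypo/wt-sired embryos. Its dimmer probe read -1.79, -1.86, -1.56 and -2.11, then -1.65, -1.41, -1.96 and -1.94. On both probes wt/wt-sired embryo 4 was lowest, and hypo/wt-sired embryos 1 and 2 were above the wt/wt-sired mean. The differences were 0.15 (95% interval -0.13 to 0.43) on the main probe and 0.09 (-0.29 to 0.48) on the other.

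Hk2, the inducible hexokinase, ran the other way across embryos. It read 2.98, 3.09, 2.96 and 3.26 in the wt/wt-sired embryos and 3.002, 2.79, 3.07 and 3.01 in the hypo/wt-sired embryos. Its highest embryo was wt/wt-sired embryo 4, the lowest for Slc2a3 and Hk1, and its lowest was hypo/wt-sired embryo 2. The groups overlapped, with a difference of -0.10 (95% interval -0.34 to 0.13, exact permutation p = 0.429).

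Pfkl and Pfkp encode the liver-type and platelet-type subunits of phosphofructokinase. Pfkl read 3.30, 3.36, 3.34 and 3.47, then 3.35, 3.42, 3.27 and 3.17, and differed by -0.06 (95% interval -0.25 to 0.12). The main Pfkp probe read -0.07, 0.38, 0.42 and 0.15, then 0.35, 0.34, -0.03 and 0.11, and differed by -0.03 (-0.36 to 0.30). The groups overlapped for both genes. The dimmer Pfkp probe did not follow the main one: it ranged from -2.67 to -1.70, and hypo/wt-sired embryo 3, near the bottom on the main probe, was level with the highest, wt/wt-sired embryo 4, on this one. Its difference was -0.12 (-0.70 to 0.46).

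Aldoa, Pgk1 and Eno1 encode the main aldolase, phosphoglycerate kinase and enolase of the embryo, which act in that order along the pathway. Aldoa read 8.01, 7.95, 7.995 and 8.03 in the wt/wt-sired embryos and 7.98, 8.20, 8.02 and 8.06 in the hypo/wt-sired embryos. Pgk1 read 7.32, 7.38, 7.50 and 7.46, then 7.55, 7.67, 7.31 and 7.41. Hypo/wt-sired embryo 2 was the highest of the 8 for both genes, and the others were interleaved. Eno1 read 8.08, 7.91, 8.05 and 8.01, then 8.03, 8.11, 8.07 and 8.09, and wt/wt-sired embryo 2 was the lowest. The differences were close in size, 0.07 for Aldoa (95% interval -0.09 to 0.24), 0.07 for Pgk1 (-0.15 to 0.29) and 0.07 for Eno1 (-0.08 to 0.22), and none had an unadjusted limma p under 0.05. Shifting the arrays by their medians turned all 3 below 0, together with the median of all probes.

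The 3 Ldha probes parted in 1 embryo. The main probe read 8.39, 8.13, 8.25 and 8.22 in the wt/wt-sired embryos and 8.10, 8.29, 8.19 and 8.10 in the hypo/wt-sired embryos. The next probe read 6.24, 6.37, 6.42 and 6.20, then 6.32, 6.54, 5.82 and 6.27. The dimmest read 3.96, 3.86, 3.94 and 4.01, then 3.87, 4.18, 2.97 and 3.83. Hypo/wt-sired embryo 3 was 0.52 and 0.98 below the mean of the other 7 embryos on the dimmer probes and only 0.02 below it on the main probe. The differences were -0.08 (95% interval -0.27 to 0.11), -0.07 (-0.43 to 0.28) and -0.23 (-0.79 to 0.33). Without hypo/wt-sired embryo 3 the dimmer probes gave 0.07 and 0.02, so the sign on both rested on that embryo.

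**Figure D1:**
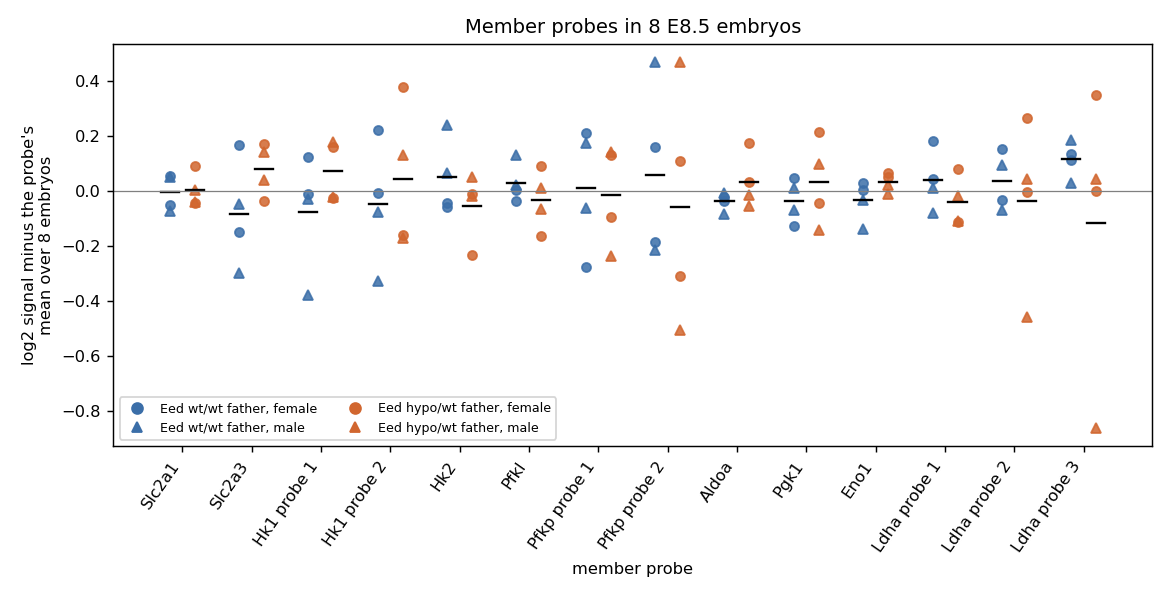
Each point is 1 embryo, plotted as log2 signal minus that probe's mean over the 8 embryos, for the 14 member probes; colour gives the father's genotype, shape the embryo's sex, and black bars the group means, with probes of a gene numbered from the brightest. The colours overlap on every probe, and the lowest point is hypo/wt-sired embryo 3 on the third Ldha probe.

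The same embryo split the probes of other glycolytic genes. Gapdh, the glyceraldehyde 3-phosphate dehydrogenase that follows aldolase, had 7 probes. In hypo/wt-sired embryo 3 the 4 brightest lay between -0.06 and 0.01 of the mean of the other 7 embryos, and the 3 dimmest were 0.50, 0.68 and 0.92 below it. On the dimmer probe of Tpi1, the triose phosphate isomerase, that embryo was 0.54 below the others, and on the brighter one it was 0.08 above. Across all 4021 genes with several tested probes, the widest disagreement among a gene's probes fell in hypo/wt-sired embryo 3 for 41.7% of genes, beside 3.88% to 14.2% for each of the other embryos. The 3 probes of Gpi1, which makes fructose 6-phosphate, did not split: they were 0.08 to 0.10 below the others in that embryo.

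**Figure D2:**
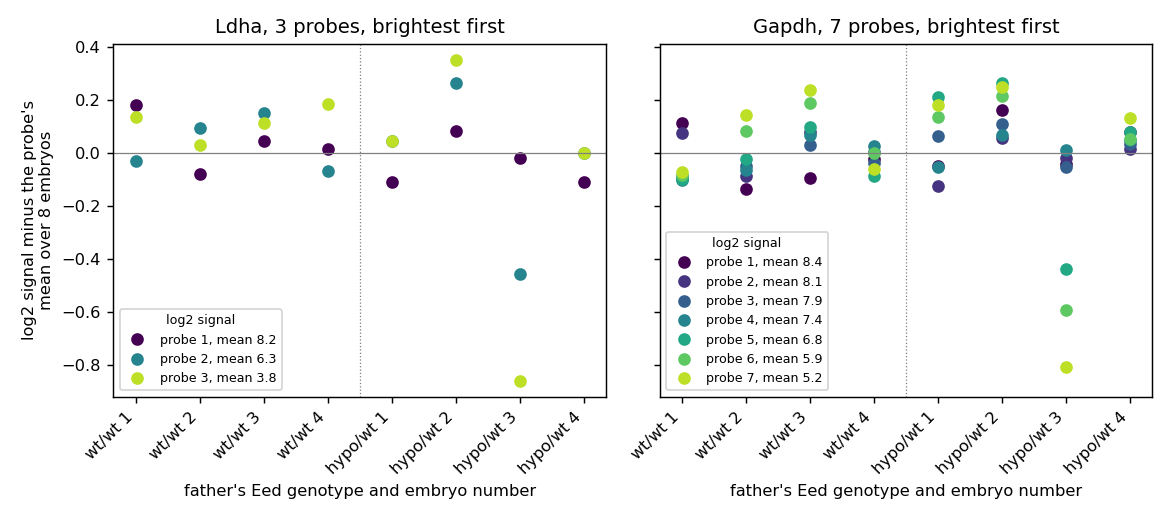
Points give the log2 signal of each of the 3 Ldha probes (left) and 7 Gapdh probes (right) minus that probe's mean over 8 embryos, by embryo, with colours running from the brightest probe to the dimmest; a dotted line parts the fathers' genotypes. The dimmer probes of both genes drop in hypo/wt-sired embryo 3 and the brightest do not.

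Over the members, 0 of 14 probes were called at an adjusted p under 0.01 and at least 2-fold, as 0% of all tested probes were. At an unadjusted p under 0.05 there were also 0 of 14, where 4.35% of tested probes passed. The groups were apart, with no overlap, for 0 of 14 member probes and for 3.16% of tested probes. The difference was above 0 for 7 probes and below 0 for 7, and over the 10 main probes its median was 0.04, beside -0.0002 over all tested probes. The intervals of the main probes ran from -0.36 to 0.43 at their widest, and those of all 14 from -0.79 to 0.48. They lay within 2-fold in both directions for 14 of 14 member probes, beside 80.1% of tested probes. The SE of the difference ran from 0.06 (Eno1) to 0.25 (dimmer Pfkp probe) over the member probes. With 4 embryos in each group, a difference inside a probe's own interval was not told from 0.

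**Figure D3:**
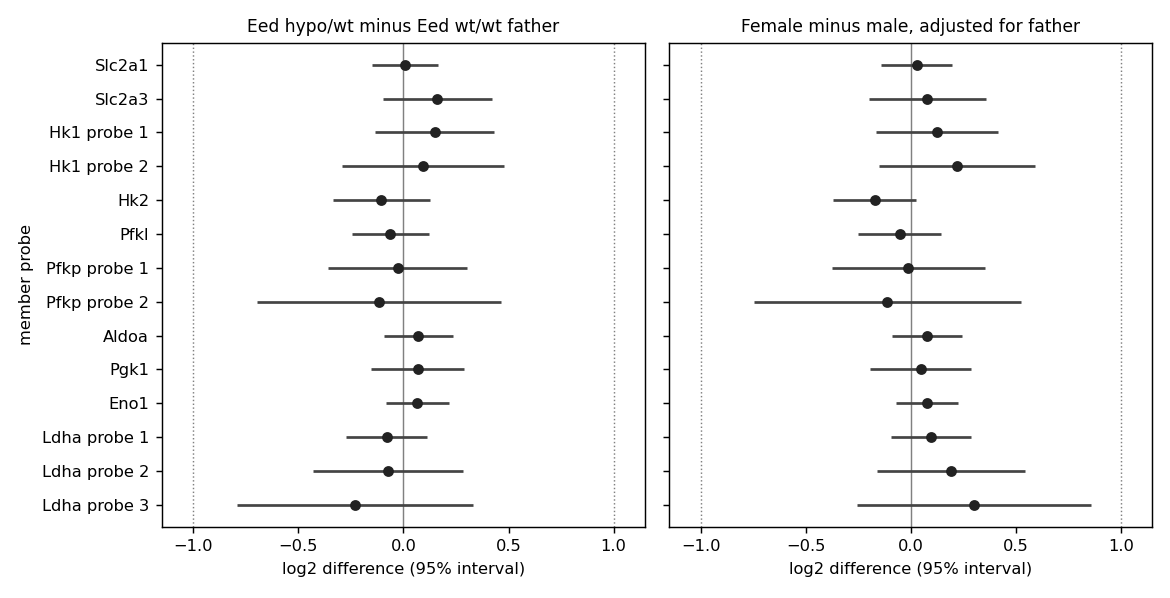
Points are log2 differences of the 14 member probes with 95% intervals from limma, for hypo/wt-sired minus wt/wt-sired embryos (left) and female minus male embryos (right); dotted lines mark 2-fold. Every interval crosses 0 and none reaches a dotted line.

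The members were steady from embryo to embryo. The standard deviation over the 8 embryos had a median of 0.11 for the main probes, from 0.06 for Slc2a1 to 0.19 for Pfkp. Over all 33093 tested probes the median was 0.22, but over the 7778 of them with a mean log2 signal of at least 2 it was also 0.11. The mean of the 10 deviations placed hypo/wt-sired embryo 2 highest, at 0.08, with 8 of 10 genes above their mean and 4 at their highest. The other embryos lay between -0.04 and 0.05, with both groups in that range. The 5 genes outside the lists whose values followed this mean most closely over the 8 embryos were Rdh13, Nek6, Ppm1a, Spring1 and Nap1l4, with Pearson's r of 0.974 to 0.977, given as a description.

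Slc2a3 and Hk1 followed each other over the embryos, and Hk2 ran against both. Over 8 embryos Slc2a3 and Hk1 had Pearson's r = 0.92 (permutation p = 0.00313) and Spearman's rho = 0.79 (permutation p = 0.0279), and r was 0.82 without the 2 embryos farthest from the median of Slc2a3. Hk1 and Hk2 had r = -0.86 (permutation p = 0.0106) and rho = -0.83 (permutation p = 0.0154), with r = -0.86 without 2 embryos. Slc2a3 and Hk2 had r = -0.76 (permutation p = 0.0278) and rho = -0.74 (permutation p = 0.0458), but r = -0.21 without 2 embryos, so this relation rested on those. These 3 were the only ones of the 45 member pairs with a permutation p for r under 0.05, and after Benjamini-Hochberg adjustment over 45 pairs the values were 0.141, 0.238 and 0.417. The adjusted values for rho were 0.413 for each of the 3 pairs. Aldoa with Eno1 (rho = 0.74) and Slc2a1 with Pfkp (rho = -0.74) had the same permutation p for rho, 0.0458, as Slc2a3 with Hk2. Their adjusted values for rho were also 0.413. Each group has 4 embryos on 1 slide, too few for a value within it. Wt/wt-sired embryo 4, the lowest for Slc2a3 and Hk1, also had the lowest summed level of the primitive erythroid markers, 8.89 beside 9.53 to 10.07 in the others, and of the yolk sac endoderm markers, 8.89 beside 9.17 to 9.37, on the log2 scale. The part of these markers in the relation was not tested.

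**Figure D4:**
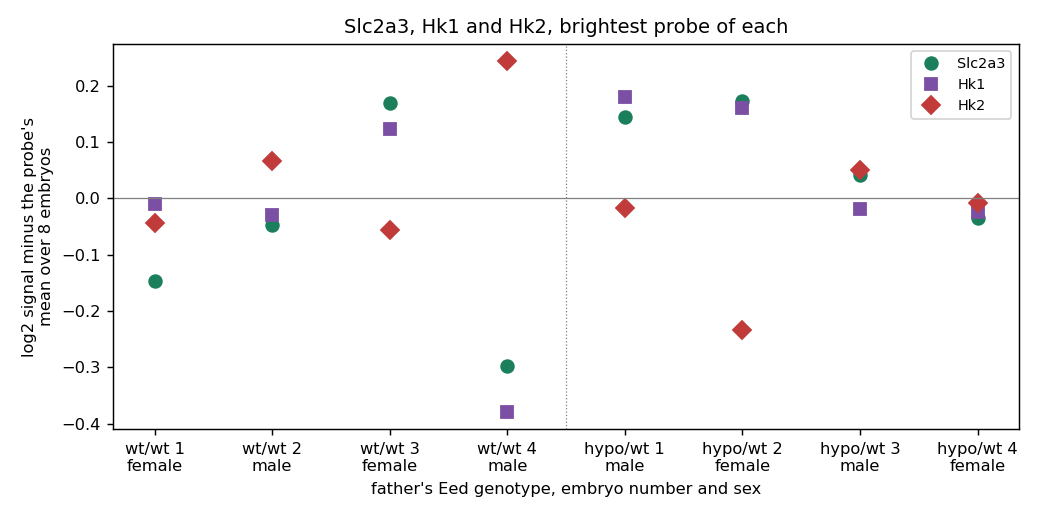
Log2 signal of the main probes of Slc2a3, Hk1 and Hk2 minus each probe's mean over 8 embryos is shown by embryo, with the fathers' genotypes parted by a dotted line. Wt/wt-sired embryo 4 has the lowest Slc2a3 and Hk1 and the highest Hk2, and hypo/wt-sired embryo 2 the lowest Hk2.

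Female and male embryos were compared in a fit that also held the father. Pgk1 is X-linked, and one X chromosome is silenced in each female cell. The female embryos read 7.32, 7.50, 7.67 and 7.41 for Pgk1 and the male embryos 7.38, 7.46, 7.55 and 7.31, so the sexes were interleaved. Female minus male was 0.05 (95% interval -0.19 to 0.29, exact permutation p = 0.629). Hk2 had the smallest p of the members in this comparison: its female mean was 2.93 ± 0.10 (SD, n = 4) and its male mean 3.10 ± 0.11 (SD, n = 4), and the difference was -0.17 (95% interval -0.37 to 0.03, limma p = 0.0775, adjusted p = 1.00, exact permutation p = 0.0571). Eno1 differed by 0.08 (95% interval -0.07 to 0.23) with the same exact permutation p, 0.0571.

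None of the 14 member probes was called by sex, where 0.0332% of tested probes were. At an unadjusted p under 0.05 there were 0 of 14 (3.27% of tested probes), and the sexes did not overlap for 0 of 14 (2.58%). The main-probe differences ran from -0.17 to 0.12 with a median of 0.06, beside -0.02 over all tested probes. Female minus male was above 0 for 10 of the 14 probes, including all 3 of Ldha (0.10, 0.19 and 0.30). The 7 primitive erythroid markers had a median female minus male of 0.48, with 2 at an unadjusted p under 0.05, and their part in these values was not tested. The father's effect in females minus that in males ran from -0.27 (main Hk1 probe) to 0.57 (dimmest Ldha probe). None of the 14 was called or had an unadjusted p under 0.05, where 0% and 2.22% of tested probes did. With 2 embryos for each father and sex, the intervals of this difference were wide, reaching -1.39 and 1.68.

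The steps that the 10 genes leave out were read from a list of 81 other genes of glucose metabolism, of which 76 were tested. None was called. At an unadjusted p under 0.05 there were 3 (Tpi1, Pdhb and Epas1), all higher in the hypo/wt-sired embryos, and 0 lower. That is 3.95% of the 76, beside 4.35% of all tested probes, of which 2% passed in the higher direction. With array weights 13 of the 76 passed, 17.1% beside 9.20%, and none was called. The median difference of the 76 was 0.03, and 43 were above 0 and 33 below.

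Tpi1, which interconverts the triose phosphates, read 6.53, 6.45, 6.52 and 6.49 in the wt/wt-sired embryos and 6.83, 6.78, 6.68 and 6.57 in the hypo/wt-sired embryos. The Tpi1 groups did not overlap, which held for 3 of the 76 genes (with Pdhb and Taldo1), beside 3.16% of all tested probes. The difference was 0.22 (95% interval 0.04 to 0.39, limma p = 0.0245, adjusted p = 1.00, exact permutation p = 0.0286, the smallest possible). The dimmer Tpi1 probe differed by 0.07 (-0.38 to 0.51) with overlapping groups. Pdhb, a subunit of pyruvate dehydrogenase, read 4.35, 4.37, 4.40 and 4.31, then 4.70, 4.65, 4.44 and 4.49, a difference of 0.22 (0.03 to 0.40, limma p = 0.0270, adjusted p = 1.00, exact permutation p = 0.0286). Its other probe differed by 0.56 (0.01 to 1.12, exact permutation p = 0.143) with overlapping groups. Hypo/wt-sired embryo 3 was the lowest of all embryos on that Pdhb probe, at 3.75. Epas1, which encodes HIF-2α, differed by 0.38 (0.03 to 0.73, limma p = 0.0359, adjusted p = 1.00, exact permutation p = 0.0571) on the brightest of its 3 probes, and by -0.15 (-0.38 to 0.07) and 0.07 (-0.24 to 0.38) on the others.

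The remaining steps of glycolysis had differences of like size. The main probes of Gapdh, Gpi1, Pgam1 (phosphoglycerate mutase) and Pkm (pyruvate kinase) differed by 0.07, 0.07, 0.07 and 0.19, with 95% intervals within -0.13 to 0.49. Hif1a, the oxygen-regulated HIF subunit, differed by -0.15 (-0.36 to 0.06). The 19 genes of the HIF pathway and its targets had a median of -0.004, with 9 above 0, and Epas1 was the only one at an unadjusted p under 0.05. The 7 pentose phosphate genes had a median of 0.09 and the 7 regulators of glycolytic genes -0.08, with 0 of either at that threshold. The 6 genes of gluconeogenesis had a median of -0.30, 0 of 6 at that threshold, and a median SE of 0.49, beside 0.15 over all tested probes, so an interval within 2-fold was had for only 2 of the 6. In the sex comparison 4 of the 76 had an unadjusted p under 0.05 (Ldhc, Fbp1, Ddit4 and Mycn), and 0 were called. Of all tested probes 3.27% had an unadjusted p under 0.05 by sex. Mean log2 signal was -3.20 for Ldhc and -2.43 for Fbp1, beside 3.42 for Ddit4 and 3.87 for Mycn.

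**Figure D5:**
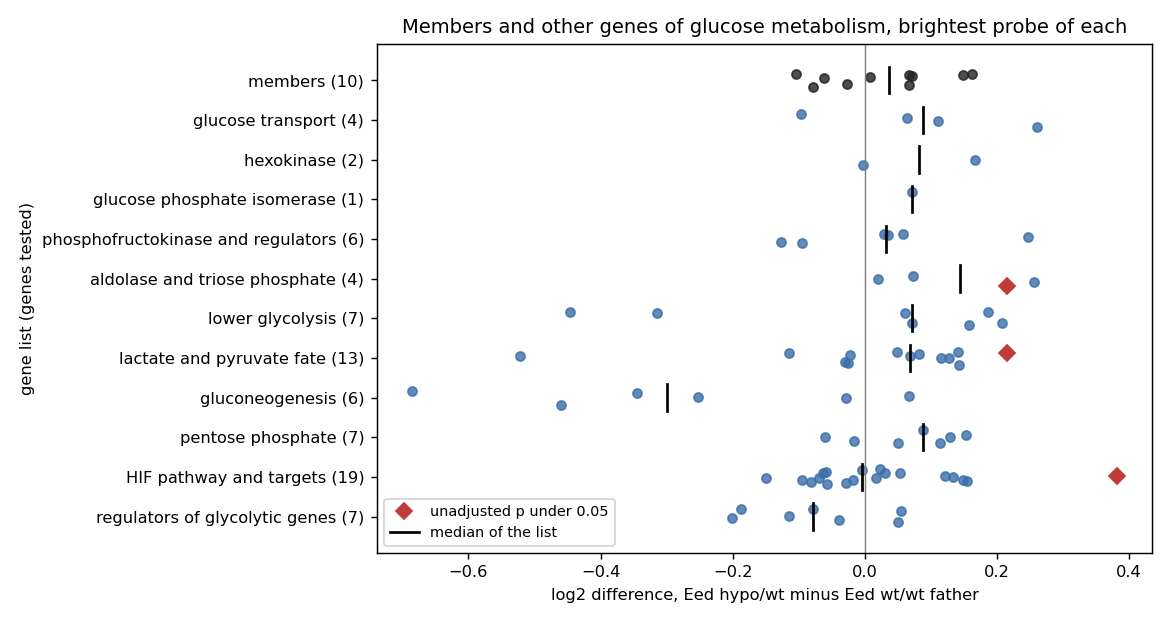
Each point is the log2 difference, hypo/wt-sired minus wt/wt-sired, of 1 gene's brightest tested probe, by gene list with the number of genes tested; red diamonds have an unadjusted limma p under 0.05 and black bars are list medians. The 10 members lie between -0.10 and 0.16, and the widest list is gluconeogenesis.

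Several of these genes have retroposed copies elsewhere in the genome, and the probe sequences were not used here, so signal from near-identical copies of Gapdh, Aldoa, Pgk1, Eno1 or Ldha cannot be told from the parent gene's. The probes A_30_P01023358, A_66_P123603 and A_55_P2158156 are named as retroposed Gapdh in the study's supplement. They differed by 0.01 (95% interval -1.33 to 1.35), -0.05 (-0.39 to 0.28) and -0.32 (-1.39 to 0.75), and their groups overlapped. The first and the third were well above background on 6 of 8 arrays only, and both were highest in hypo/wt-sired embryo 3, at -3.09 and -3.62 beside -5.85 to -4.47 in the other embryos.

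Markers of tissue outside the embryo proper were set beside the member values. The summed level of the trophoblast and decidua markers was 3.58 to 4.00 in the wt/wt-sired and 2.84 to 3.65 in the hypo/wt-sired embryos on the log2 scale, and 1 of the 5 tested, Prl8a2 (a prolactin-family gene of the decidua), differed by -2.46 at an unadjusted p under 0.05 (limma adjusted p = 1.00). Hand1, the brightest of these markers, differed by 0.21, and the other 4 tested were lower in the hypo/wt-sired embryos. Whether each marker is confined to tissue outside the embryo proper was not tested. The part of maternal or trophoblast tissue in the member values was not tested either. The summed level of the erythroid markers was 8.89 to 10.07 in the wt/wt-sired and 9.53 to 9.86 in the hypo/wt-sired embryos. That of the yolk sac markers was 8.89 to 9.37 and 9.17 to 9.24. By father, 7 erythroid markers differed by more than 0 and 0 by less, with a median of 0.19. None of them had an unadjusted limma p under 0.05. For the yolk sac markers 5 were above 0 and 2 below, with a median of 0.03. The part of either set in the member values was not tested.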

How the data were processed

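The study's authors scanned one-colour Agilent 8x60K arrays and extracted spots with Feature Extraction (version 11.0.1.1). Each deposited intensity had its background subtracted and spatial trend removed by them, with no scaling between arrays. A deposited table of the whole series holds the same intensity per spot and array (0 sample columns unused) and served as an alternative. Here, log2 intensity was shifted by each array's 75th percentile, without control spots or spots marked as outliers, and a probe's spots were averaged. Testing left out the dimmest 20% of probes by mean and any that fewer than 4 of 8 arrays showed well above background, which left 33093 of 55681. RefSeq annotation of GRCm38.p6 was read for names alone and gave symbols to 27235 of the 28685 probes that carry RefSeq accessions. Groups were compared with limma 3.58.1 in R 4.3.3 (package data.table, version 1.17.8). A call was a Benjamini-Hochberg adjusted p under 0.01 over all tested probes and at least 2-fold, the study's cut-off; its methods name no test. Single values used exact permutation (70 assignments, smallest two-sided p 0.0286). The scripts were tested on simulated data. Named genes were all members, 5 uncovered glycolytic steps, Hif1a, listed genes at an unadjusted p under 0.05, 3 retroposed Gapdh probes and the 5 genes most alike. The members and lists were chosen with earlier results of these data known. Alternatives were another background correction, scaling, filter, covariate, block, weighting and moderation, and each embryo left out. Figures used Python 3.11.15, pandas 2.3.3 and matplotlib 3.10.9.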

Additional observations from a re-analysis of the deposited data

How the results depend on the processing

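No member probe was called, by father, sex or their interaction, under any alternative run. By father, over all alternatives and all 14 probes the smallest unadjusted p was 0.042, the smallest adjusted p 0.596, and the difference stayed between -0.39 and 0.24. The count of member probes at an unadjusted p under 0.05, 0 by father, ran from 0 to 1 when single embryos were dropped (Slc2a3, without wt/wt-sired embryo 3). By sex it was 1 with trend and robust moderation (Hk2) and ran from 0 to 2 when single embryos were dropped, and for the interaction from 0 to 1. The smallest exact permutation p of a main probe, 0.143, was 0.0286 with normexp (Slc2a1) and with quantile normalization (Ldha), the smallest it can be. The median of the main probes, 0.037, was -0.066 after a median shift, which moved the median of all probes to -0.10. By sex, 0.062 became 0.21 after a median shift, with all probes at 0.13, and -0.0011 with quantile normalization.

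Of the 76 other genes, 3 had an unadjusted p under 0.05 (3.95%, beside 4.35% of all tested probes). There were 7 with normexp (9.21%, beside 6.18%), 6 with trend and robust moderation (7.89%, beside 4.49%) and 13 with array weights (17.1%, beside 9.20%). There were 0 with the median shift (beside 1.44%), 0 with a random block on the first part of the embryo code (correlation 0.54, beside 2.07%) and 1 with no filter (1.32%, beside 9.58% of 55625 probes). When single embryos were dropped there were 0 to 6, beside 2.93% to 9.36% of all tested probes. The count called over all probes by father, 0, ran from 0 to 1 when single embryos were dropped. By sex, 11 became 5 with no filter, 0 above background on all 8 arrays, 0 with the replicate block and 4 to 9 when single embryos were dropped. For the interaction 4 were called after the median shift.

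Several differences near 0 changed sign. By father, with normexp, Ldha's main probe was 0.051, A_66_P123603 0.031 and A_55_P2158156 0.089. After the median shift, Slc2a1 was -0.095, Eno1 -0.036, Aldoa -0.031, Pgk1 -0.035, the dimmer Hk1 probe -0.010, Gapdh -0.029, Gpi1 -0.031, Pgam1 -0.032 and the retroposed Gapdh probe A_30_P01023358 -0.090. Slc2a1 was -0.032 with quantile normalization. With the code block, the main Pfkp probe was 0.034, Slc2a1 -0.0050 and A_30_P01023358 -0.062. With array weights, the dimmer Ldha probes were 0.023 and 0.028 and A_30_P01023358 -0.20. When single embryos were dropped, the main Pfkp probe ran from -0.12 to 0.047, the dimmer one from -0.29 to 0.033, Slc2a1 from -0.022 to 0.028, the dimmer Hk1 probe from -0.019 to 0.18, the dimmest Ldha probe from -0.39 to 0.016, the middle one from -0.17 to 0.066, A_30_P01023358 from -0.57 to 0.32 and A_66_P123603 from -0.18 to 0.026. By sex, Pfkl was 0.094 and Pfkp 0.14 after the median shift, Slc2a1 -0.014 and Pgk1 -0.014 with quantile normalization, Slc2a1 -0.0036 and Pfkp 0.074 with the code block, and Pfkp 0.0030 with array weights. When single embryos were dropped, Pfkp ran from -0.10 to 0.10, Slc2a3 from -0.0043 to 0.14, Pgk1 from -0.015 to 0.096 and Slc2a1 from -0.0021 to 0.055. The cause of these changes was not tested.

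The replicate numbers did not pair the embryos: deviations of same-numbered embryos correlated at -0.55, -0.05, -0.59 and -0.15. With the replicate block 0 of 14 member probes were called by father and 0 had an unadjusted p under 0.05, with 874 of all tested probes at that threshold in place of 1440. The interaction could not be fitted with the block, because the sexes alternate over the replicate numbers in opposite order in the groups. No spot of a member probe was marked as saturated, and all member probes were well above background on every array. Whether the signal of the brightest probes still rose in proportion to the mRNA was not tested. What limits the precision was not tested either.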
